A study of Mus musculus with 54 samples.

Results

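The strongest borders at identical position are 424 places in the mouse genome where a topologically associating domain began at exactly the same coordinate in parental and in gemcitabine-resistant pancreatic cancer cells. A border entered the set when the Start of an autosomal domain was identical in both deposited domain lists and the separation score of that domain was in the lowest 20% of its own list in both. These 424, called the members or the strongest borders here, were 20.7% of the 2046 autosomal borders at identical position and 7.42% of the 5714 distinct autosomal borders of the 2 lists. The remaining 1622 borders at identical position, called the other identical borders here, are the main comparator, beside 1752 borders at a position of the parental list only and 1916 at a position of the resistant list only.

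The study compared parental cells with a line made resistant to gemcitabine, the cytidine analogue given in pancreatic cancer, by RNA-seq, ATAC-seq, ChIP-seq and Hi-C. Hi-C reads out which stretches of DNA touch each other inside fixed nuclei. The parental Hi-C group was 3 samples of genotype WT treated with DMSO, and the resistant group was 3 samples of genotype Gemcitabine resistant treated with gemcitabine in DMSO. Both groups carried the labels pancreatic cancer cell, primary tumor as the cell line and Pancrease as the tissue, and the labels give no other allele, strain or age. Resistance and drug exposure went together, so the lists cannot tell them apart, and doxorubicin stands in the series text of the Hi-C samples where their labels name gemcitabine. The values used here were 1 domain list on bins of 10 kb and 1 loop list on bins of 5 kb per condition, with no value per replicate and no read depth, so no comparison below has a replicate error or a test. Intervals are exact 95% Clopper-Pearson intervals, which cover counting error only, and neighbouring borders on a chromosome are not independent.

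Topologically associating domains are stretches of chromosome that contact themselves more often than their neighbours. In mammals many of their borders are places where the ring complex cohesin, which extrudes chromatin into loops, is stopped by the DNA-binding protein CTCF, and many others coincide with active promoters. Housekeeping genes, tRNA genes and short interspersed elements have long been described near borders, and strong borders tend to be shared between cell types. Loops called from Hi-C often join a pair of CTCF sites at the 2 ends of a domain.

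A few promoters beside these borders are shown as examples of sequence there. RefSeq promoters of the mouse assembly GRCm38.p6, the coordinates of mm10, hold 250 bases before and 50 bases after a gene's start, and the table gave one for 652 of the 884 protein-coding genes within 50 kb of a strongest border (73.8%), against 79.6% of all autosomal protein-coding genes. Because of that gap no property was compared over the whole set. They are the promoter of Opa1 and those of 5 housekeeping genes with an entry in the table. Opa1 encodes the mitochondrial fusion GTPase and lies at 1 of the 12 borders of lowest score rank. The starts of the 5 housekeeping genes lay 0.1 to 2.7 kb from a border. These 5 are examples and not the closest over all members, since other housekeeping genes as close to a border are not shown. Letters in capitals mark GGGCGG, the GC box bound by Sp factors, and CCGGAAG, a site of ETS factors, on either strand.
Opa1: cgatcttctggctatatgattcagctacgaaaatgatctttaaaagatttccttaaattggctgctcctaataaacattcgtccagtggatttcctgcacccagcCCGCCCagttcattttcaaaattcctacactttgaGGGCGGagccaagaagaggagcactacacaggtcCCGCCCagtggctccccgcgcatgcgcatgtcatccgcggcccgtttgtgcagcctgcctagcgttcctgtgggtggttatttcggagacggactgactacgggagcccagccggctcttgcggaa
Eif1: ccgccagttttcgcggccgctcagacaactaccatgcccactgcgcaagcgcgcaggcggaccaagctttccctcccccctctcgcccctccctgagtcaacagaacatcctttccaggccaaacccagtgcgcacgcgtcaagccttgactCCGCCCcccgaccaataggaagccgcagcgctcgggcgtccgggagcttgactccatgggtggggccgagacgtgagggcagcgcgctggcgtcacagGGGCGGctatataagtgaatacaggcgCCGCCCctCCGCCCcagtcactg
Dnajc21: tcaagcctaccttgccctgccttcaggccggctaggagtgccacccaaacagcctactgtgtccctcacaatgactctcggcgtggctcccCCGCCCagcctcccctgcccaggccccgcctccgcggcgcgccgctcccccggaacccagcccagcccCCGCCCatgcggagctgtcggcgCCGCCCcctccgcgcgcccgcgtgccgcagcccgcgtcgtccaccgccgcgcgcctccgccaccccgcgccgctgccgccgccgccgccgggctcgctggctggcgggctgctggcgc
Farsb: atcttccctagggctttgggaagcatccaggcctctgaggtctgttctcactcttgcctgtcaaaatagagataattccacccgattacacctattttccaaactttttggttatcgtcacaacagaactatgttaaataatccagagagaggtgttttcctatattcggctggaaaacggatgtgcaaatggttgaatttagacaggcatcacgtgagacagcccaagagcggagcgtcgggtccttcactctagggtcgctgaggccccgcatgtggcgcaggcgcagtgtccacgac
Mrps22: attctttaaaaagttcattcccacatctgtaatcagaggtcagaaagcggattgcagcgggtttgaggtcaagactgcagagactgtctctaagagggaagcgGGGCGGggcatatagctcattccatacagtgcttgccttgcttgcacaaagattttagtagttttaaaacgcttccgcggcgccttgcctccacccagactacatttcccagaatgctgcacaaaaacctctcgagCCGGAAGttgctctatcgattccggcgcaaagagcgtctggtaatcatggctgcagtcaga
Rps3a1: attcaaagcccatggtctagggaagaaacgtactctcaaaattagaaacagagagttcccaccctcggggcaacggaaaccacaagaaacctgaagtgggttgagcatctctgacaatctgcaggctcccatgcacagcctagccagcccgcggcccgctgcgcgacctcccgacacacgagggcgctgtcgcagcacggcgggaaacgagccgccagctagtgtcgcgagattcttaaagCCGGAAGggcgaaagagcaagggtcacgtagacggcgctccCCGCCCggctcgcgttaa

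The Opa1 promoter (chr16:29579084-29579383, plus strand) held 3 GC boxes, and its start lay 0.7 kb left of the border at position 29580001 of chromosome 16. The promoter of Eif1, a factor of start codon selection (chr11:100319699-100319998, plus strand), held 4, and its start lay 0.1 kb from its border. The promoter of Dnajc21, a ribosome-associated co-chaperone (chr15:10470467-10470766, minus strand), held 3. Farsb encodes the beta subunit of phenylalanyl-tRNA synthetase, and its promoter (chr1:78488848-78489147, minus strand) held neither motif. The promoters of Mrps22, a mitochondrial ribosomal protein (chr9:98601630-98601929, minus strand), and Rps3a1, a protein of the small ribosomal subunit (chr3:86142619-86142918, minus strand), each held 1 GC box and 1 ETS site. Of 20085 mouse promoters of that length, 47% held a GC box and 11.9% the ETS letters. None of these 6 held AAGATGGCG, a site of YY1 found in 1.83% of promoters, or CCANNAGGG, a part of the CTCF site found in 6.16%. These letters say nothing about the rest of the 10 kb bins, which were not read. The observed over expected ratio of CpG pairs was between 0.71 and 1.01 in the 6 promoters, against a median of 0.59 and an upper quartile of 0.83 over all promoters.

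The borders were selected on their separation scores, which are the authors' and are given here as a description. The score is deposited without its scale, and a lower score was read as a stronger border, which the files do not state. It was read as belonging to the Start of a domain, because in pairs of domains with the same left border only the 2 lists' scores had a Pearson r of 0.964 over 987 pairs, against 0.629 over 992 pairs with the same right border only. Of all autosomal borders, 21.0% of the parental list and 21.2% of the resistant list lay in the lowest 20%. The members' scores ran from -1.68 to -0.661 in the parental list, with a median of -0.80, and from -1.68 to -0.658 in the resistant list, with a median of -0.83. Just inside the limit lay the borders near Neto1 on chromosome 18 (-0.661 parental, -0.726 resistant) and near C1qtnf3 on chromosome 15 (-0.698 and -0.658), and just outside it those near Cops8 on chromosome 1 (-0.658 and -0.788) and Cd96 on chromosome 16 (-0.658 and -0.657). At identical positions, 50 further borders passed the limit for parental cells alone and 91 for resistant cells alone. The score was lower in the resistant list at 270 of the 424 members (63.7%) and at 70.8% of the other identical borders.

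The members were spread unevenly over the chromosomes. On chromosome 9, 52 of 118 identical borders (44.1%, interval 34.9 to 53.5) were members, on chromosome 19, 22 of 54 (40.7%), on chromosome 18, 34 of 87 (39.1%), and on chromosome 15, 32 of 87 (36.8%). Chromosome 7 held 1 member among 117 identical borders (0.855%) and chromosome 14 none among 77, which allows a share of up to 4.68%. Chromosomes 4, 5, 7, 12 and 14 together held 18 members among 510 identical borders. The median score of all borders of a chromosome moved with these shares, from -0.22 in both lists on chromosome 7 to -0.54 and -0.58 on chromosome 9. That follows from the rule, which set 1 score limit per list for all chromosomes, and is no separate result. Comparisons with the other identical borders are therefore also given within chromosome, over the 16 autosomes with at least 5 members, or with the comparator weighted to the members' chromosomes. Neighbouring members on a chromosome were a median of 2890 kb apart, and the closest pair 190 kb.

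**Figure D1:**
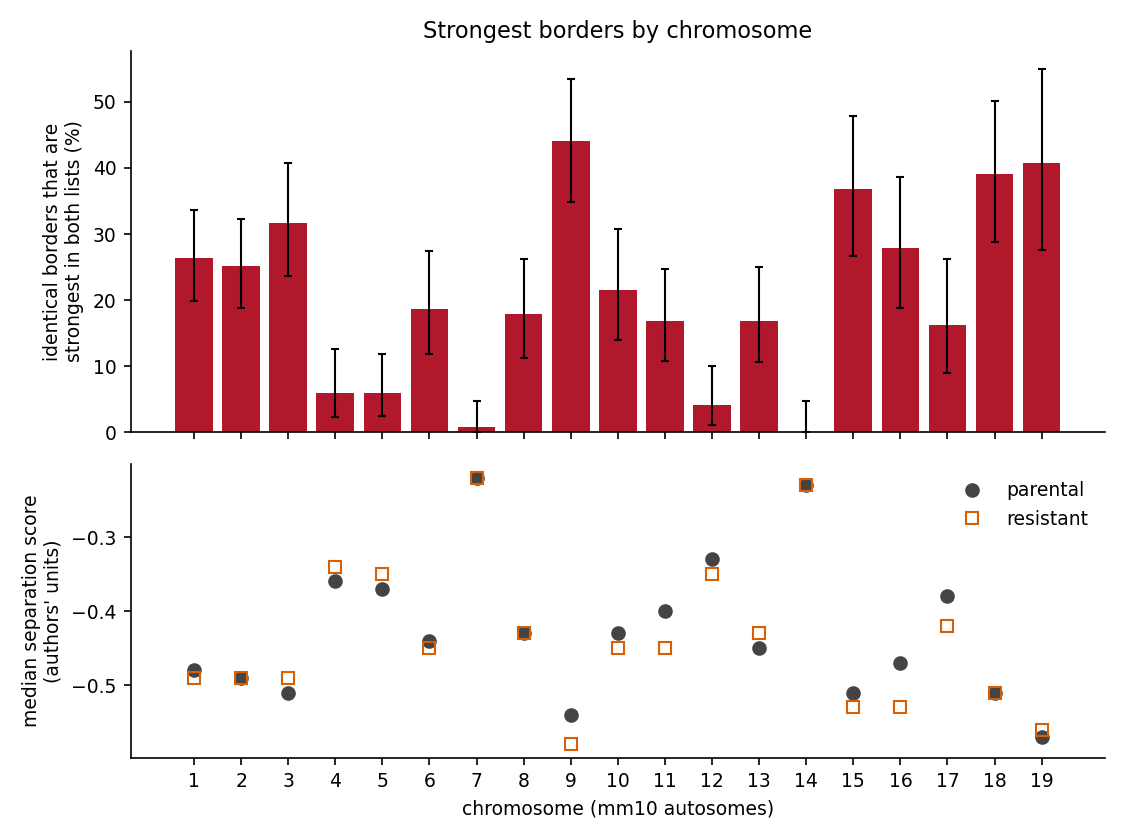
Share of borders at identical position that were strongest in both lists, by autosome (upper panel, bars with exact 95% intervals), and the median separation score of all borders of the chromosome in each list (lower panel, authors' units). The shares run from 0 of 77 on chromosome 14 to 44.1% on chromosome 9. Chromosomes with high median scores hold few members, which follows from the rule, since the score limit of a list was the same for all chromosomes.

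The 12 borders of lowest score rank lay in quite different surroundings. The lowest of all was at position 40935001 of chromosome 3 inside Abhd18, an abhydrolase gene, with a score of -1.68 in both lists. It had no loop anchor within 20 kb and separated domains of 1075 and 835 kb in the parental list. Next came the border at 4025001 of chromosome 19 (-1.26 parental, -1.43 resistant), with 9 protein-coding genes within 50 kb, among them the glutathione transferase genes Gstp1 and Gstp2 and Ndufv1, a core subunit of respiratory complex I. The border at 36800001 of chromosome 18 (-1.36 and -1.37) lay 0.3 kb from an end of Zmat2 beside Hars and Hars2, the cytosolic and mitochondrial histidyl-tRNA synthetases. At each of these 3 borders no loop was anchored within 20 kb in either list.

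Among the 12, others had few genes. The border at 47100001 of chromosome 17 (-1.40 and -1.28) had 1 gene within 50 kb, Trerf1, a transcriptional regulator. The border at 13230001 of chromosome 9 (-1.23 in both lists) closed a left domain of 2360 kb in the parental list and 2340 kb in the resistant list. It lay near Jrkl and Ccdc82 and was an anchor of 2 parental loops and 1 resistant loop, which all reached right. The border at 191800001 of chromosome 1 near Lpgat1 and Nek2, the gene of a mitotic kinase, had -1.12 in the parental list and -1.55 in the resistant list. The others were near Brd1, which encodes a subunit of histone acetyltransferase complexes, Bcl6, a transcriptional repressor, Mtch2 with the complex I gene Ndufs3, Opa1, the ion cotransporter gene Slc12a2, and Api5. At Slc12a2 the parental list had 2 loops, of 565 and 400 kb, and the resistant list 2 that matched them, of 570 and 405 kb, all reaching left, plus 1 resistant loop of 495 kb to the right. Of the 12, 5 had a loop anchor within 20 kb in at least 1 list.

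By unweighted means the strongest borders had slightly fewer genes nearby than the other identical borders, but not when weighted by chromosome. A smaller share of them was gene-dense. They had a mean of 2.08 protein-coding genes within 50 kb (exact Poisson interval 1.95 to 2.23) and a median of 2, against 2.19 and 2 at the other identical borders, and 2.08 at those weighted to the members' chromosomes. The members' mean was the lower one on 12 of 16 chromosomes, while their median was lower on 3 and higher on 5. Within 20 kb the means were 1.23 (1.13 to 1.34) and 1.37, and within 100 kb 3.08 (2.92 to 3.26) and 3.4. At 42 members (9.91%, 7.23 to 13.2) no gene lay within 50 kb, against 11.5% of the other identical borders and 23% and 24.2% of the borders found in the parental or resistant list only. At least 5 genes lay within 50 kb of 19 members (4.48%, 2.72 to 6.91), against 8.94% (7.6 to 10.4) of the other identical borders and a background of 6.51% over all distinct autosomal borders. The members' share was the lower one on 12 of the 16 chromosomes. In all, 884 protein-coding genes, 4.28% of those on the autosomes, lay within 50 kb of a member.

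The members lay beside genes more often than inside them. The end of a protein-coding gene, where either its start or its end counts since the gene annotation carries no strand, was within 20 kb of 319 members (75.2%, 70.8 to 79.3), against 69.2% (66.9 to 71.4) of the other identical borders and a background of 57.4%. This share was higher at members on 12 of 16 chromosomes. The border position fell inside a gene at 151 members (35.6%, 31.1 to 40.4), against 50.9% (48.5 to 53.4) at the other identical borders and a background of 43.0%, and the share was lower at members on 12 of 16 chromosomes. The median distance to the nearest gene end was 6.26 kb at members and 7.48 kb at the other identical borders. In bins of 10 kb, the number of gene ends per member was 0.5 just left of the border and 0.476 just right of it, and at most 0.318 in the next bins. At the other identical borders these numbers were 0.521, 0.486 and at most 0.335, so the peak was no higher at members. A gene end lay within 10 kb of 60.6% of members (55.8 to 65.3) and 56.7% of the other identical borders (54.3 to 59.1), with overlapping intervals. That share was higher at members on 10 of 16 chromosomes and lower on 5.

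**Figure D2:**
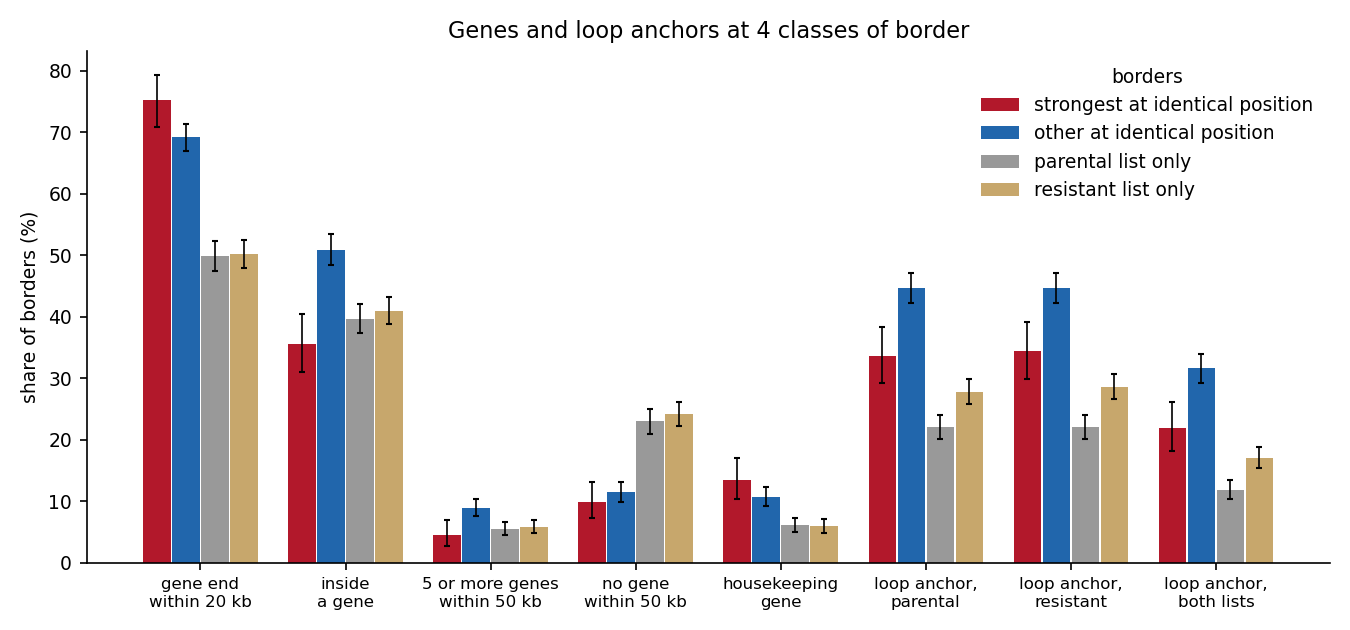
Share of borders (%, exact 95% intervals) with each feature in the 4 classes of autosomal border: strongest at identical position (424), other identical (1622), parental list only (1752) and resistant list only (1916). Members are the highest class for a gene end within 20 kb (75.2%), and for loop anchors they lie between the other identical borders and the borders of 1 list only.

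The members with most genes included clusters of repeated gene families. The border at 37890001 of chromosome 18, inside Diaph1 and near the histone deacetylase gene Hdac3, had 26 genes within 50 kb in an annotation that lists the variable exons of the gamma protocadherins, neuronal adhesion proteins, as separate overlapping genes. Borders at 23530001, 21710001 and 22050001 of chromosome 13 had 14, 11 and 7 genes, and the border at 96270001 of chromosome 3 had 11. All 4 lay in clusters of replication-dependent histone genes, of which 13, 8, 5 and 10 lay within 50 kb. Together they held 36 of the 67 autosomal histone genes counted, and 0 of the 1622 other identical borders had one within 50 kb, which allows a share of up to 0.227%. Histone genes were counted after their values had been seen, and the 4 borders lie on 2 chromosomes. Other members with many genes were at 106490001 of chromosome 9 (9 genes, with Rrp9 of ribosomal RNA processing), at 4025001 of chromosome 19, and at 43000001 of chromosome 4, where the border was inside Vcp, the gene of the AAA ATPase p97, with 8 genes within 50 kb. The border at 35920001 of chromosome 17, inside Ppp1r10, had 7.

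No protein-coding gene lay within 100 kb of 28 members (6.6%, 4.43 to 9.4), a share like that of the other identical borders (6.35%). The lowest in score of these were at 61100001 of chromosome 15 (-0.97 parental, -1.03 resistant), 178.7 kb from the nearest gene end, at 50780001 of chromosome 16 (-0.92 and -0.93), at 66820001 of chromosome 10 (-0.92 in both) and at 27290001 of chromosome 15 (-0.93 and -0.90). None of these 4 had a loop anchored within 20 kb in either list.

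Housekeeping genes were slightly more frequent near members than near the other identical borders, within the counting intervals. The count used 13 families fixed by symbol, with 855 genes on the autosomes. At least 1 such gene lay within 50 kb of 57 members (13.4%, 10.3 to 17.1), against 10.7% (9.26 to 12.3) of the other identical borders and a background of 7.89% over all distinct borders. The share was higher at members on 9 of 16 chromosomes and lower on 7. Of the 884 genes near members, 63 (7.13%, 5.52 to 9.03) were in these families, against 5.57% (4.84 to 6.38) of the genes near the other identical borders and 4.14% of all autosomal genes. Genes of tissue-restricted families, such as olfactory receptors, keratins and zinc fingers of the Zfp series, were 4.41% of the genes near members, 3.95% of those near the other identical borders and 10.3% of all autosomal genes.

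Of the protein-making families, 8 of 37 aminoacyl-tRNA synthetases, the enzymes that load tRNAs with their amino acids, lay within 50 kb of a member, and 7 at the other identical borders. They were Farsb at 1.1 kb, Eprs at 1.6 kb, Dars at 3.7 kb, Hars2 and Hars at 1 border, Nars with the border inside the gene, Kars at 28.6 kb and Rars at 48.4 kb. The border beside Eprs, at 185430001 of chromosome 1, had scores of -1.02 and -0.97, and the one beside Kars -0.99 and -0.97. Cytosolic ribosomal protein genes were 11 of 83, against 17 at the other identical borders. The border fell inside Rps3a1 (-0.88 parental, -1.00 resistant) and Rpl17 (-0.68 and -0.79), and lay 0.8 kb from Rps29, 1.5 kb from Rps14, 3.1 kb from Rps23, 3.3 kb from Rplp1 and 5.2 kb from Rps12. Translation factors were 6 of 71, among them Eef1b2 and Eif1 with the border inside the gene, against 15 at the other identical borders. The 6 include Eef2kmt, which the symbol pattern took although it encodes a methyltransferase. Mitochondrial ribosomal proteins were 5 of 78, against 15. Of all autosomal protein-coding genes, 4.28% lay within 50 kb of a member and 17% within 50 kb of another identical border. The synthetases were 0.905% of the genes near members (0.391 to 1.78) and 0.199% of those near the other identical borders (0.08 to 0.41), with 8 and 7 genes behind the 2 shares.

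Of the other housekeeping families, chaperones were 8 of 70, against 18 at the other identical borders, with Cct8, a subunit of the chaperonin TRiC, 4.1 kb from the border at 87500001 of chromosome 16 (-1.02 and -1.01), and Hspa9 and Hspa4 near others. Subunits of the respiratory chain and ATP synthase were 7 of 94, against 20, among them Cox4i1, Ndufs1, Ndufb9 and Ndufv1. Proteasome genes were 3 of 48 (Psmg1, Psmd7 and Psmd1), against 14, general transcription and mediator genes 4 of 94, against 19, and vesicle coat and exocyst genes 5 of 105, against 27. Ubiquitin conjugation genes were 3 of 55, against 11, and splicing factor genes 2 of 88, against 24. These counts are to be read against the 4.28% of all autosomal protein-coding genes that lay within 50 kb of a member and the 17% that lay within 50 kb of another identical border. None of 8 reference genes lay near a member or near another identical border.

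Of 34 pancreatic cancer driver genes, 5 lay within 50 kb of a member (14.7%) and 8 near another identical border (23.5%), where the shares of all autosomal genes were 4.28% and 17%. The border at 61980001 of chromosome 15 lay 5.3 kb from Myc, the growth-promoting transcription factor, and scored -0.89 (parental) and -1.03 (resistant). In both lists a loop left the 5 kb bin from 61985001 to 61990000, which covers most of Myc, and reached right. Its far anchor began 135 kb away in the parental list (caller p-value 7.61e-05) and 340 kb away in the resistant list (9.4e-07), so that neither loop matched one of the other list. Smad4, the common mediator of TGF-beta signals, lay 4.8 kb from the border at 73630001 of chromosome 18 (-0.76 and -0.82), which had no loop anchor. The left domain of that border was 2300 kb in the parental list and 460 kb in the resistant list. The TGF-beta family receptor genes Tgfbr2 (27.7 kb, -0.98 in both lists) and Acvr2a (border inside the gene, -0.84 and -0.88) had no loop anchor at their borders either.

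None of 37 genes of gemcitabine uptake and metabolism, of 15 genes of cohesin and CTCF, or of 3 Foxa genes lay within 50 kb of a member, against 12, 2 and 0 at the other identical borders. None of 39 Hox genes did, against 23. With 4.28% of all autosomal genes near a member, counts of 0 in lists this short are close to the background. A count of 0 allows up to 0.416% of the genes near members.

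A smaller share of the strongest borders than of the other identical borders had a loop anchor nearby. An anchor bin lay within 20 kb of 143 members in the parental list (33.7%, 29.2 to 38.4) and of 146 in the resistant list (34.4%, 29.9 to 39.2). At the other identical borders the share was 44.7% (42.3 to 47.2) in each list taken by itself, and 48.3% and 48.1% when weighted to the members' chromosomes. The backgrounds over all distinct autosomal borders were 31.3% and 31.6%. The members' share was the lower one on 13 of 16 chromosomes in each list. Both lists had an anchor at 93 members (21.9%, 18.1 to 26.2), against 31.6% of the other identical borders and a background of 19.9%. The order depended on which end of a domain was taken as the border, since with identical End positions and the same limit on the score 337 borders had anchors at 45.4% and 47.2%, against 41.9% at the other identical End positions in each list. Only 93 of those 337 positions were members, and which end of a domain the score belongs to is not stated in the files.

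Fewer than 50% of the members with an anchor had one in both conditions. Of the 196 members with an anchor in either list, 93 (47.4%, 40.3 to 54.7) had one in both lists, 50 had a parental anchor alone and 53 a resistant anchor alone. At the other identical borders the part with both was 54.6% (51.3 to 57.8). Of the 201 parental loops anchored at a member, 101 (50.2%) had a match with both anchors within 10 kb in the resistant list, against 51.3% of the loops anchored only at other identical borders and 37.8% of all autosomal loops. For the 209 resistant loops the share was 46.9%, against 50% and 36.3%. With 1 list per condition these counts cannot be set against the spread between replicates.

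Loops anchored at the members were long. Their median span was 325 kb in the parental list (quartiles 125 and 545 kb) and 305 kb in the resistant list (115 and 520 kb), against 175 kb in both lists for loops anchored only at other identical borders and 115 kb for all autosomal loops. Loops that passed over a member with no anchor within 20 kb were found at 18 members in the parental list (4.25%, 2.54 to 6.63) and 10 in the resistant list (2.36%, 1.14 to 4.29), against 6.41% and 6.54% of the other identical borders. The share was lower at members on 13 of 16 chromosomes in the parental list and 15 of 16 in the resistant list. Both anchors lay within 20 kb of a member in 6 parental and 12 resistant loops. These counts include short loops with both anchors near the same border, such as 1 of 10 kb near Suclg1 (parental) and 1 of 5 kb near Rps29 (resistant). They are therefore not counts of loops that join 2 members.

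More of these loops reached right than left. In the parental list 117 loops reached right, into the domain that begins at the border and carries the score, and 82 left (58.8% right, 51.6 to 65.7). In the resistant list they were 118 and 89 (57%, 50 to 63.8). At the other identical borders they were 516 and 555 (48.2% right) and 505 and 583 (46.4%). Within 10 kb of a member the right share was 53.9% and 53.2%, with intervals of 43 to 64.6 and 42.6 to 63.6. Within 40 kb it was 56.2% (50.9 to 61.5) and 52.4% (47.2 to 57.6). With scores ranked within each chromosome it was 56.8% (49 to 64.4) and 54.3% (46.9 to 61.7) within 20 kb. Members had fewer loops per border than the other identical borders mainly to the left, 0.193 against 0.342 in the parental list and 0.21 against 0.359 in the resistant list, where the rightward numbers were 0.276 against 0.318 and 0.278 against 0.311. In bins of 10 kb the members' anchors were most frequent 10 to 20 kb right of the border, with 0.167 parental and 0.172 resistant anchors per border. The other identical borders had similar numbers in that bin, 0.17 and 0.16.

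**Figure D3:**
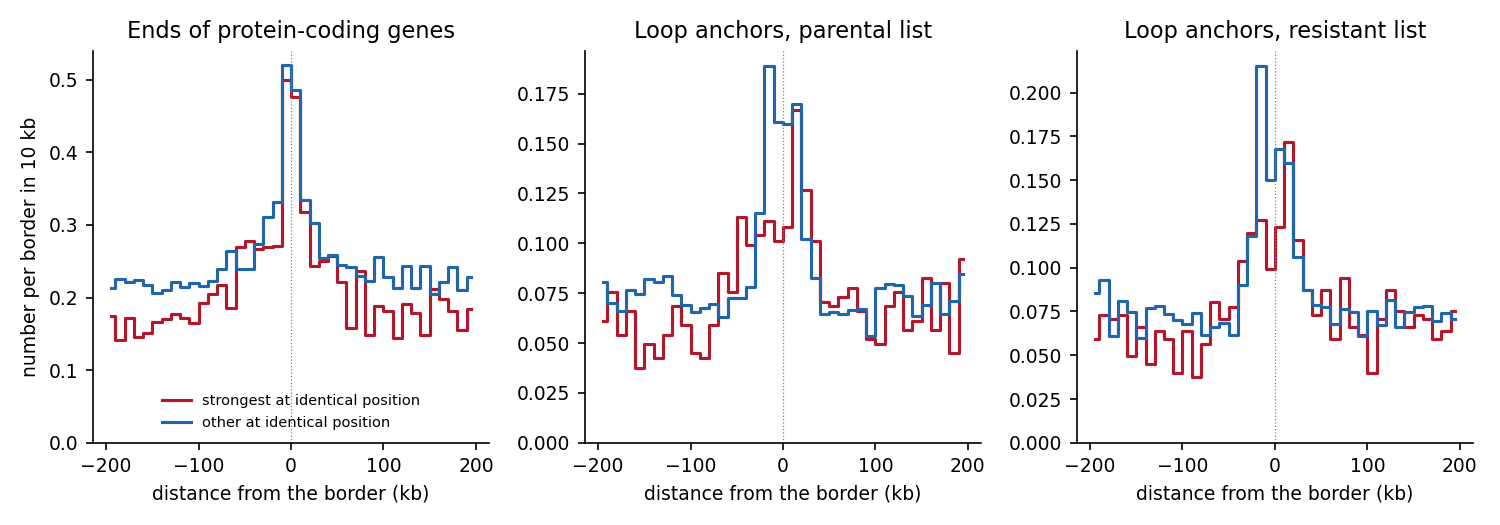
Number per border, in bins of 10 kb, of gene ends (left), parental loop anchors (middle) and resistant loop anchors (right) by distance from the border, for members (424) and the other identical borders (1622). Gene ends peak in the bins beside the border in both classes, and the peak of loop anchors left of the border at the other identical borders (0.189 and 0.215 at -20 to -10 kb) is 0.111 and 0.127 at members.

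The members with most loops had up to 5 in a list. The border at 101980001 of chromosome 15, inside Krt78 and beside Krt8 and Krt18, the keratins of simple epithelia, anchored 3 parental and 5 resistant loops. All 3 parental loops, of 650, 200 and 80 kb, had matches in the resistant list, and the 2 further resistant loops spanned 450 and 150 kb. The lowest caller p-values of any loop at a member, 3.93e-12 and 1.21e-11, belonged to the 200 kb loop of this border. The border at 170520001 of chromosome 2 near Pfdn4, a prefoldin subunit, and Cyp24a1, the enzyme that inactivates vitamin D, anchored 4 loops in each list, all matched, with 2 in each direction. The border at 110380001 of chromosome 13 near the polo-like kinase gene Plk2 anchored 3 and 3, all matched, the longest of 845 kb in both lists.

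Some further members anchored several loops. The border at 10910001 of chromosome 15 near C1qtnf3 anchored 5 parental and 2 resistant loops. At 22010001 of chromosome 10, near the serum- and glucocorticoid-regulated kinase gene Sgk1, 3 loops in each list all reached left, the longest of 625 kb in both. The border near Epb41l4a at 33790001 of chromosome 18 anchored 3 loops in each list. The border inside Nars anchored no parental loop and 3 resistant loops, of 220, 355 and 425 kb, all from 1 bin to its right.

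The domains on both sides of a strongest border were larger than those at the other identical borders. The domain to the right had a median of 520 kb in the parental list (interval from order statistics 500 to 570) and 535 kb in the resistant list (500 to 570), against 470 and 450 kb. The domain to the left had a median of 580 kb in both lists (550 to 620 in each), against 460 kb in both. Mean sizes were 641 and 627 kb to the right and 707 and 684 kb to the left, against 539 and 526 kb and 557 and 534 kb. The mean was higher at members on 16 of 16 chromosomes for the right domain in both lists, and on 15 and 16 of 16 for the left domain. The median right domain was higher at members on 13 chromosomes and lower on 2 in the parental list, and higher on 15 in the resistant list. For the left domain the median was higher on 16 (parental) and 15 (resistant). Borders found in 1 list only had right domains of similar size, with medians of 550 and 530 kb. Right domains of 1000 kb or more stood at 55 members in the parental list (13%) and 45 in the resistant list (10.6%), against 6.35% and 5.8%.

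**Figure D4:**
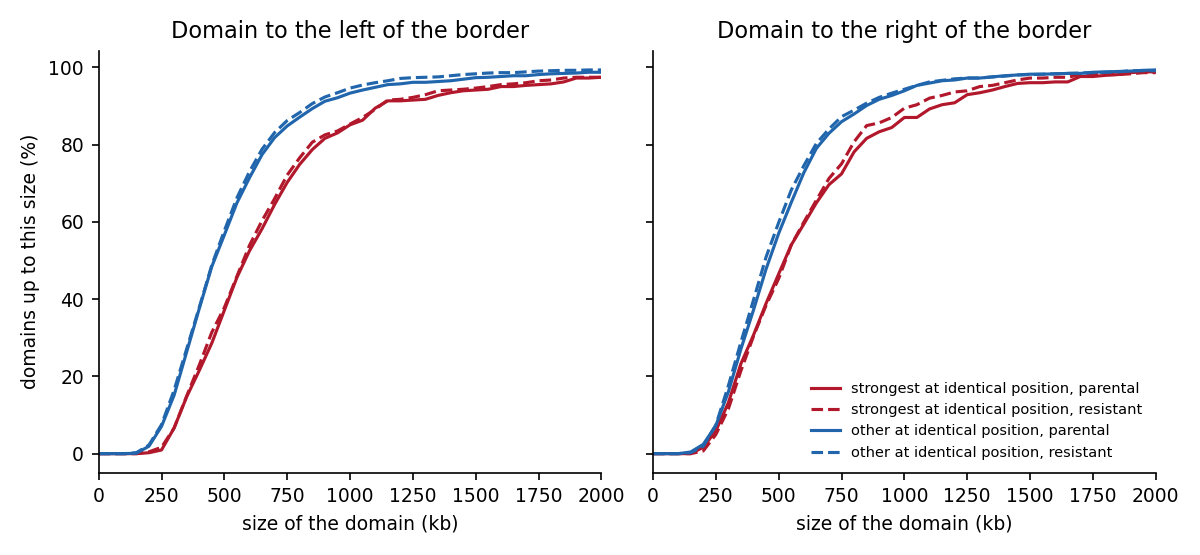
Cumulative share of domains up to a given size (kb) to the left and to the right of members (424) and of the other identical borders (1622), with solid lines for the parental and dashed lines for the resistant list. The curves of the members lie to the right of the others on both sides, with medians of 580 against 460 kb on the left and of 520 and 535 against 470 and 450 kb on the right.

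The left domain was the larger one at 240 members by the parental and 242 by the resistant list, and the right one at 174 in each, while at the other identical borders the numbers were 799 and 791, and 809 and 789. The right domain was the same in both lists at 220 members (51.9%, 47 to 56.7), against 54.5% (52 to 56.9) of the other identical borders. It ended at another member in 63 cases in the parental list (14.9%) and 62 in the resistant list (14.6%). For the other identical borders the shares that ended at a member were 9.8% and 9.68%. These shares were not taken within chromosome or weighted by chromosome, and the members were spread unevenly over the chromosomes.

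In the parental list the 4 largest right domains were at Otol1 on chromosome 3 (3090 kb in both lists), Grin3a and Rnf20 on chromosome 4 (2740 kb parental, 2730 kb resistant), Suclg1 on chromosome 6 (4350 and 1080 kb) and a place with no gene within 100 kb at 83510001 of chromosome 5 (2500 and 2490 kb). A border with a larger right domain in the resistant list was the gene-free one at 112460001 of chromosome 1, named after its values were seen, with 1380 kb (parental) and 4040 kb (resistant). Among the smallest of the parental list were the domains beginning at Ppp6c, the catalytic subunit of a protein phosphatase, on chromosome 2 (170 kb in both lists), and at Mocs2 and Itga2 on chromosome 13 (170 kb parental, 420 kb resistant).

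Over all identical borders these features followed the order of the scores. When the 2046 borders were put into 5 classes of equal size by score rank within each chromosome, so that every chromosome had its share in each class, loop anchors in the parental list stood at 32.6% (28.1 to 37.4) of the class of lowest score and at 51.2% (46.3 to 56.2) of the class of highest, and in the resistant list at 32.8% and 49.3%. The share of borders inside a gene was 38.4%, 45.6%, 49.6%, 48.8% and 56.4% in order of score. The median right domain of the parental list was 540, 510, 480, 450 and 420 kb, and the median left domain 605, 510, 490, 440 and 420 kb. Housekeeping genes gave no such order, with 14.1%, 10.8%, 10%, 9.51% and 12%. The class of lowest score and the 424 members share most of their borders, so these values describe the gradient and are no second sample.

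**Figure D5:**
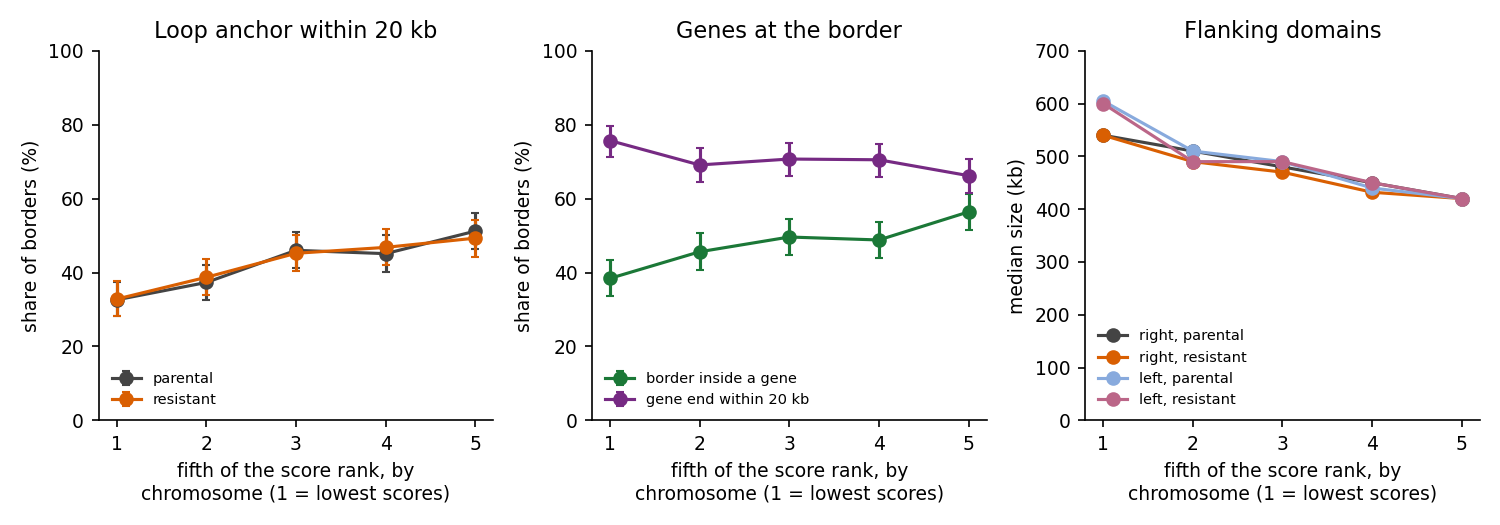
Loop anchors within 20 kb (left), borders inside a gene and gene ends within 20 kb (middle, shares of borders with exact 95% intervals), and median sizes of the flanking domains (right) in 5 classes of score rank within chromosome, for the 2046 borders at identical position. From the lowest to the highest scores the share with a parental loop anchor goes from 32.6% to 51.2% and the median right domain of the parental list from 540 to 420 kb.

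Genes of tRNA lay near a small number of members. They were counted after their values had been seen. At least 1 of the 391 autosomal tRNA genes of the annotation lay within 50 kb of 14 members (3.3%, 1.82 to 5.48), against 16 of the other identical borders (0.986%, 0.565 to 1.6) and a background of 1.03%. The share was higher at members on 9 of 16 chromosomes, lower on 5 and equal on 2. The 14 members held 51 tRNA genes, with 14 at the histone border at 23530001 of chromosome 13, 10 at 21160001 of the same chromosome, 8 at 12020001 of chromosome 19 near Osbp and 7 at 22050001 of chromosome 13. Without chromosome 13 the shares were 2.48% (1.19 to 4.5) and 1.05% (0.601 to 1.7), and these intervals overlap. Single tRNA genes stood at the borders near Rps12, Brd1, Dhx9 and Morf4l1.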

How the data were processed

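Per the labels, 6 of the 54 samples are Hi-C libraries, 3 per condition, and the other 48 were not used. The submitters' processing notes name BWA and the builds mm10 and hg19, without their roles. Callers and any pooling of replicates count as not given in the sources used here. Deposited by the authors were, per the file headers, a p-value for each loop and a separation score for each domain (p-values were used to describe and filter loops, scores to rank borders within a list). Genes came from a RefSeq annotation of GRCm38.p6. Borders were joined by position, and genes, anchors and domains counted with Python 3.11.15, numpy 2.4.6, pandas 2.3.3 and scipy 1.17.1, tested on simulated data. A loop matched when both anchors lay within 10 kb, and a left domain had to end within 10 kb of the border. The members, gene families and windows were chosen with earlier results of these data known. Named borders were the 12 of lowest mean score rank, those with most genes, most loops, no gene within 100 kb or extreme right domains, and those near genes of the lists. Symbols of Gm or LOC and digits or ending in Rik were counted, not named, and some genes that the rule took are not reported here. Depth is unknown, and a list from fewer reads can hold fewer calls.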

Additional observations from a re-analysis of the deposited data

How the results depend on the processing

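Of 63 values under alternatives, 46 stayed within the interval of the main value and 17 moved. The gene, anchor or p-value window itself differs in 11 of them. Genes per border were 1.23 within 20 kb (1.37 at the other identical borders), 3.08 within 100 kb (3.4) and 1.82 with End as the border (2.24). They were lower than at the other identical borders in 9 of 9 settings, with comparators not weighted by chromosome. Loop anchors within 10 kb stood at 17.2% (parental), 18.6% (resistant) and 9.43% (both lists) of members, and within 40 kb at 53.5%, 51.7% and 38.9%. With the loops in the lower 50% of p-values they stood at 25.5%, 27.4% and 17.2%, and with End as the border at 45.4%, 47.2% and 33.2%. With the lowest 10% of scores (216 borders) the left domain had a median of 630 kb in both lists. In 27 of 30 settings and lists the anchor share was lower than at the other identical borders, the exceptions being those with End. All 24 domain sizes were larger, but sizes were not computed with End as the border. Of 9 housekeeping shares, 8 were higher, the exception again being End (5.7% against 5.88%). Ranking scores within each chromosome, chosen after seeing the data, gave 412 borders, 310 of them members, and anchors at 31.1% and 34%. No paired analysis was possible because the lists hold no value per replicate, and for the same reason no replicate could be left out. Limits are that 1 list per condition gives no replicate error, that depth is unknown, and that a border is known to 10 kb.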

Other observations

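Genes of small RNAs other than tRNA were counted beside the members too. A miRNA gene lay within 50 kb of 36 members (8.49%, 6.02 to 11.6), against 5.92% (4.82 to 7.18) of the other identical borders, and a snoRNA gene near 33 (7.78%, 5.42 to 10.8), against 4.81% (3.82 to 5.97), and these intervals overlap. Genes of the let-7 family, miRNAs that repress growth-promoting transcripts, stood near 2 members and were picked after the values were seen. The border at 106160001 of chromosome 9 (-0.94 parental, -0.88 resistant) lay near Mirlet7g, and the border at 48490001 of chromosome 13 (-0.66 and -0.69) near the cluster of Mirlet7d, Mirlet7f-1 and Mirlet7a-1. Their mature 5p strands from RefSeq (GRCm38.p6) share a seed, bases 2 to 8, given in capitals.
mmu-let-7g-5p: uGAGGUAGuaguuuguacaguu
mmu-let-7d-5p: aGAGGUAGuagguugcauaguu
mmu-let-7f-5p: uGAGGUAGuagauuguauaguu
mmu-let-7a-5p: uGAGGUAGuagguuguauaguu

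Chromosome X held 87 borders at identical position and none in the lowest 20% of both lists. Its median score was -0.13 (parental) and -0.14 (resistant), with 1 parental and 2 resistant domains under the limit. Genes of long non-coding RNAs lay within 50 kb of 55.2% of members and 52.9% of the other identical borders, and genes of small nuclear RNAs near 4.72% and 4.38%.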
